A study of Mus musculus with 9 samples.

Results

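The D cyclins, their kinases, the inhibitors of these kinases and the retinoblastoma protein with its partner E2F1 are the gate through which a cell enters the division cycle. The genes of this gate described here were listed by symbol: Ccnd1, Ccnd2, Ccnd3, Cdk4, Cdk6, Cdkn1b, Cdkn2c, Cdkn2d, Rb1 and E2f1. All 10 were measured, of 19938 genes in all. Each was read by a probe set, several short probes for the same transcript, and where a gene had several such sets the brightest was used. The arrays hold RNA of whole femoral marrow from 3 wild type mice, of wild type marrow from 9 other mice that was lineage-depleted (cells bearing markers of mature blood cells were removed with a kit) and combined into 3 pools of 3 mice, and of whole marrow from 3 ERG transgenic mice killed when signs of a myeloid leukemia appeared. The labels give the strain of all mice as C57BL6 and give no age, while the sources used here give neither the promoter nor the species of the transgene. Each group has 3 arrays, so an array stands for 1 mouse in whole marrow and leukemia and for 3 mice in a pool. The labels of leukemias 1 and 2 differ only by a final digit of the animal number, and they were taken as separate mice because the series design counts 3 transgenic mice.

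D cyclins appear when growth factor receptors signal. They bind the kinases CDK4 and CDK6, and the paired enzyme phosphorylates the retinoblastoma protein, which then lets go of E2F factors that switch on the genes of DNA synthesis. INK4 proteins, among them those encoded by Cdkn2c (p18) and Cdkn2d (p19), bind the kinases and block them, and p27, the product of Cdkn1b, restrains the cyclin E and CDK2 enzyme that acts next. In blood, Ccnd2 and Ccnd3 are the D cyclins of lymphoid and myeloid precursors, Cdk6 is a kinase of stem and progenitor cells, and p19, p18 and p27 mark cells that slow or leave the cycle as they mature.

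Array medians of intensity lay between 32.3 and 34.4, and the median of all probe sets, used here as a level under which signal is taken as background, was 33.4. Each of the 10 genes lay above it on all 9 arrays, with a lowest intensity of 40.3 (Ccnd1 in leukemia 2). The labels could not be checked on the transgene: the mouse Erg probe set read 6.37 ± 0.21 (log2, SD, n = 3) in the leukemias, against 7.29 ± 0.30 in whole marrow and 6.80 ± 0.23 in the pools. The mice also differed in sex, since the Y-linked gene Eif2s3y stood between 7.89 and 8.53 on the log2 scale in the 3 pools and whole marrow array 2 and between 3.98 and 4.18 elsewhere. Xist, which is expressed from the inactive X of females, stood between 8.80 and 10.07 in the pools and at 4.32 in whole marrow array 2, so the pools held both marks. The part of sex in the results below was not tested.

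The cell makeup of the samples differed, as marker genes show. Summed over 13 mature neutrophil markers, intensity ran from 44731.7 to 52098.7 in whole marrow, from 824.8 to 2634.2 in the lineage-negative pools and from 17419.5 to 27202.9 in the leukemias. None of these 13 was below the background level on all 3 arrays of any group, but Ltf, Mmp8, Mmp9 and Ly6g were below it in pool 2. Mmp9 was also below it in pool 3. Over 13 B cell markers it ran from 1445.8 to 6051.1 in whole marrow, 458.2 to 659.4 in the pools and 487.1 to 674.7 in the leukemias, where 8 of the 13, Pax5, Ebf1 and Rag1 among them, were below the background level on all 3 arrays (7 of 13 in the pools). Over 10 erythroid markers the sums were 1435.0 to 4265.4, 5225.9 to 7370.0 and 5172.7 to 9340.6, and over 8 stem and progenitor markers 719.0 to 860.7, 1903.1 to 2910.7 and 1052.2 to 1912.9, in the same order of groups. In the leukemias that last sum rested on Gata2, a factor also of mast cell and megakaryocyte precursors: 1 marker was higher than in whole marrow and 2 lower, with a list median of -0.30. Without Gata2, left out after its values were seen, the sums were 624.6 to 713.9 in whole marrow, 1396.3 to 2285.3 in the pools and 428.1 to 570.4 in the leukemias. Whole marrow array 2 had the lowest B cell and the lowest erythroid sum of its group. In bulk RNA such as this, fewer cells of a type and less RNA per cell cannot be told apart, and the part of cell makeup in each result below was not tested.

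**Figure D1:**
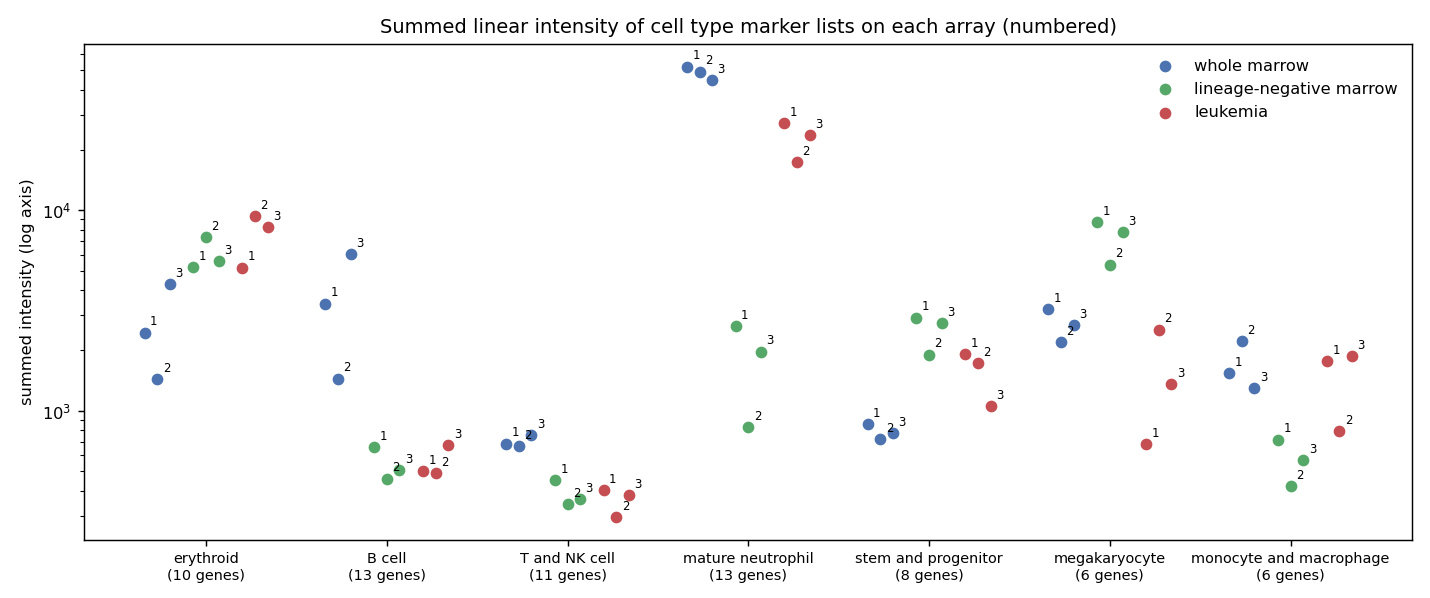
Summed linear intensity (log axis) of 7 lists of cell type markers on each of the 9 arrays, numbered by array within a group. The mature neutrophil sums of the 3 groups do not overlap, with the lineage-negative pools lowest at 824.8 to 2634.2, and the B cell sums of leukemias and pools lie below those of whole marrow.

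Among the 10 genes, several differed between lineage-negative and whole wild type marrow. In lineage-negative marrow Cdk4, Cdk6, Ccnd2 and E2f1 were higher than in whole marrow, and Ccnd3, Cdkn1b and Cdkn2d were lower, while Ccnd1, Cdkn2c and Rb1 did not pass the test. In leukemic marrow Cdk4, Cdk6, E2f1 and Cdkn2c were higher than in whole marrow and none of the 10 passed as lower. Against lineage-negative marrow the leukemias had higher Cdkn2d, Cdkn1b, Cdkn2c and Ccnd3 and lower Cdk4. The test throughout is limma on log2 intensities over all genes, two-sided, with Benjamini-Hochberg adjustment over all genes of a comparison and a threshold of 0.05, and all 3 groups share one model.

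**Figure D2:**
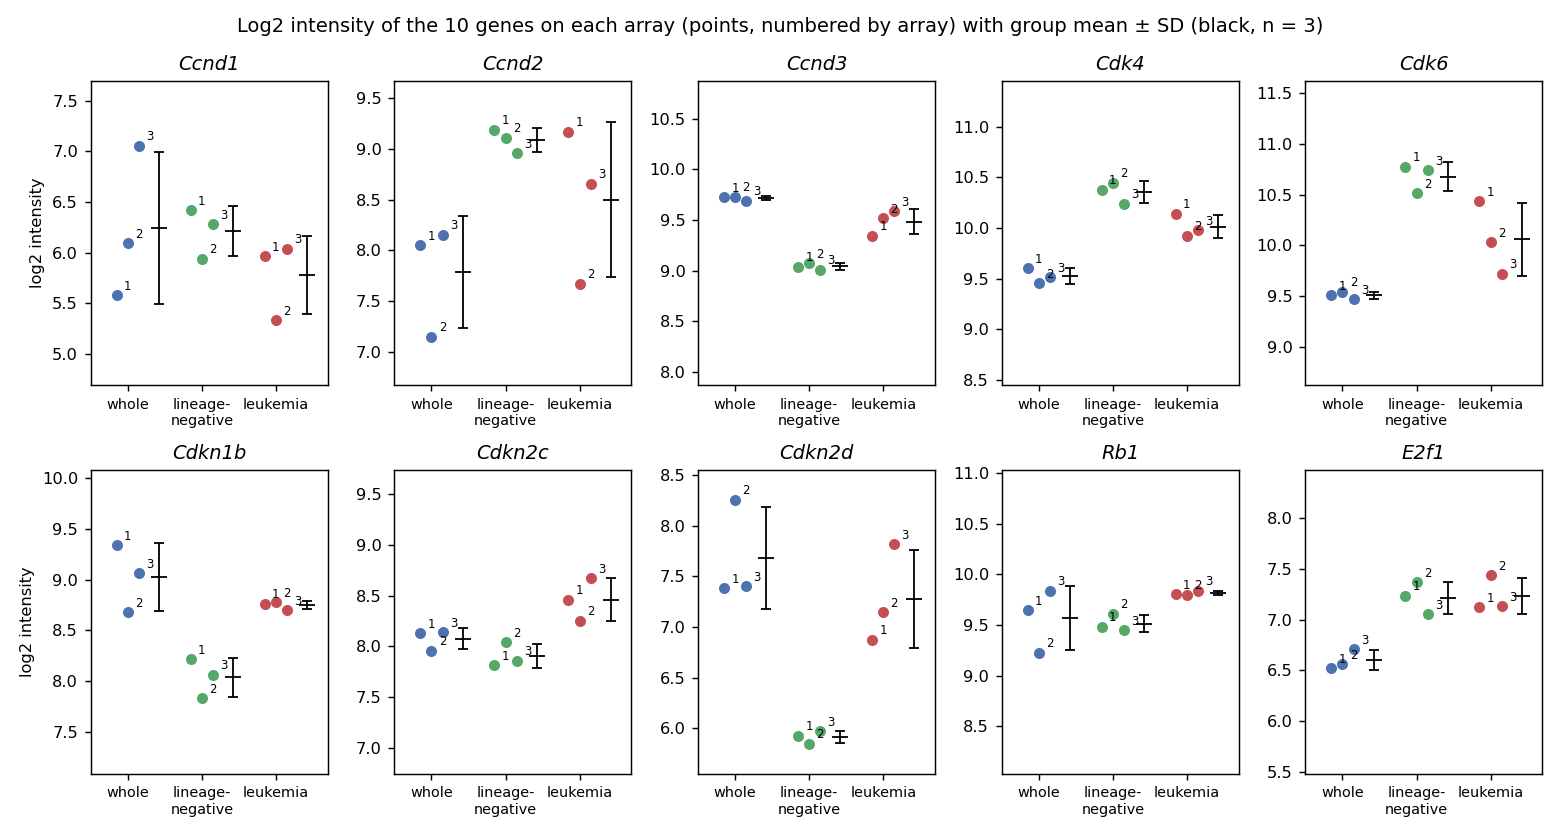
Log2 intensity of the 10 genes on each of the 9 arrays (points, numbered by array within a group) with the group mean ± SD (n = 3) in black. All panels span the same range of log2 units, and in Ccnd3, Cdk4 and Cdk6 the 3 groups do not overlap. Cdk4 lies at 9.46 to 9.61 in whole marrow, 9.93 to 10.14 in leukemia and 10.24 to 10.45 in lineage-negative marrow.

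Among the 3 D cyclins, Ccnd2 and Ccnd3 had opposite orders. The log2 intensity of Ccnd2, the cyclin induced by cytokine signals in blood precursors, was 8.05, 7.15 and 8.16 in whole marrow arrays 1, 2 and 3, 9.19, 9.11 and 8.96 in the lineage-negative pools and 9.17, 7.67 and 8.66 in leukemias 1, 2 and 3. All pools were above all whole marrow arrays, and the leukemias spread from the whole marrow range to the pool range. Lineage-negative marrow exceeded whole marrow 2.47-fold (log2 difference 1.30 ± 0.38, SE, limma adjusted p = 0.0263). This call was lost after cyclic loess scaling (1.03), without whole marrow array 2 (0.985) and without pool 1 (1.25), 2 (1.29) or 3 (1.37). Leukemia minus whole marrow was 0.71 ± 0.38 (95% interval -0.147 to 1.58, adjusted p = 0.226), and it was 1.13 (adjusted p = 0.0300) without leukemia 2, 0.378 without leukemia 1 and 0.397 without whole marrow array 2. Leukemia minus lineage-negative marrow was -0.59 ± 0.38 (95% interval -1.45 to 0.273, adjusted p = 0.434), or -0.173 without leukemia 2 and -0.924 without leukemia 1.

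Ccnd3, the D cyclin needed by maturing precursors such as erythroblasts, pre-B and pre-T cells, had the smallest spread of the 10 in whole marrow (SD 0.0227) and the pools (SD 0.0308), but not in the leukemias (SD 0.126). Its log2 intensity was 9.73, 9.73 and 9.69 in whole marrow, 9.04, 9.07 and 9.01 in the pools and 9.34, 9.51 and 9.59 in the leukemias. The 3 groups did not overlap, with whole marrow highest, the leukemias between and the pools lowest. Lineage-negative marrow was 1.60-fold lower than whole marrow (-0.67 ± 0.08, limma adjusted p = 0.000292), and the leukemias were 1.36-fold higher than lineage-negative marrow (0.44 ± 0.08, adjusted p = 0.0116). Each of these calls held under every alternative tried. Against whole marrow the leukemias stood at -0.23 ± 0.08, just outside the threshold (adjusted p = 0.0584), and passed it after cyclic loess (-0.41, adjusted p = 0.00747), with 16 added before the log (-0.228, adjusted p = 0.0325) and without leukemia 3 (-0.286, adjusted p = 0.0457).

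Ccnd1, the D cyclin best known from epithelial and stromal cells, passed in no comparison. It ran from 5.58 to 7.05 on the log2 scale in whole marrow, 5.94 to 6.42 in the pools and 5.33 to 6.04 in the leukemias, and all groups overlapped. Its highest value was that of whole marrow array 3. Leukemia minus whole marrow was -0.46 ± 0.35 (95% interval -1.26 to 0.335, limma adjusted p = 0.415), leukemia minus lineage-negative marrow -0.43 (-1.23 to 0.363, adjusted p = 0.559) and lineage-negative minus whole marrow -0.03 (-0.825 to 0.769, adjusted p = 0.961). The first of these was -0.0557 without whole marrow array 3, -0.794 without whole marrow array 1 and -0.240 without leukemia 2, and the second was -0.212 without leukemia 2.

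Both kinases of the D cyclins had the order whole marrow, leukemia, lineage-negative marrow. Cdk4 had log2 intensities of 9.61, 9.46 and 9.52 in whole marrow, 10.14, 9.93 and 9.98 in the leukemias and 10.38, 10.45 and 10.24 in the pools, so no 2 groups overlapped. Relative to whole marrow Cdk4 was 1.78-fold higher in lineage-negative marrow (0.83 ± 0.09, limma adjusted p = 0.000212) and 1.40-fold higher in the leukemias (0.49 ± 0.09, adjusted p = 0.00507). Both rises held under every alternative, the second with 0.319 after cyclic loess. The leukemias lay below lineage-negative marrow by 0.34 ± 0.09 (log2 difference -0.34, adjusted p = 0.0481), a call at the edge that was lost under 12 of 16 alternatives. Among these were 75th percentile centring (-0.301), the 2 groups alone, and leaving out any 1 array other than leukemia 1, at values from -0.405 to -0.297 over all arrays left out.

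Cdk6 had log2 intensities of 9.51, 9.54 and 9.47 in whole marrow, 10.77, 10.51 and 10.74 in the pools and 10.44, 10.03 and 9.72 in the leukemias. No 2 groups overlapped, and the leukemias spread over a wider range (SD 0.359) than whole marrow (SD 0.037) or the pools (SD 0.143). A pool averages 3 mice, so its SD is not of the same kind as that of single mice. The gene was 2.25-fold higher in lineage-negative than in whole marrow (1.17 ± 0.16, limma adjusted p = 0.000724), also under every alternative. In the leukemias it was 1.47-fold higher than in whole marrow (0.55 ± 0.16, adjusted p = 0.0377), and this call was lost under 10 of 16 alternatives. They were 75th percentile centring (0.471), cyclic loess (0.387), the 2 groups alone (0.554), and leaving out whole marrow array 1, 2 or 3 (0.535 to 0.572), pool 1 or 3 (0.554 each), leukemia 1 (0.367) or leukemia 2 (0.571). Leukemia minus lineage-negative marrow was -0.62 ± 0.16 (95% interval -0.987 to -0.245, adjusted p = 0.0526), which passed under 3 alternatives: without leukemia 1 (-0.803, adjusted p = 0.0104), with bright genes alone (adjusted p = 0.0415) and with an intensity trend in the prior (adjusted p = 0.0433).

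The sequence before the start of Cdk4 is shown because the 3 groups did not overlap in Cdk4 and its window holds several copies of the E-box CACGTG, a site class read by many basic helix-loop-helix factors. Promoter sequence was taken from RefSeq on GRCm38.p6, where 7 of the 10 genes had 9 start sites between them, and 250 bases before each start were searched on both strands. The motifs were E2F (TTTCCCGC, TTTCGCGC, TTTGCCGC or TTTGGCGC), STAT (TTCNNNGAA), E-box (CACGTG, which reads the same on both strands), and ETS (CCGGAAGT or CAGGAAGT), and for GATA factors AGATAA, with TGATAA as the other form. Capitals below mark a match. The first line is the Cdk4 window at chr10:127063285-127063534 on the plus strand, directly before the gene's outermost start. The other lines give 30 bases around the only match in Cdk6 (chr5:3343661-3343690, plus strand) and in Ccnd3 (chr17:47504802-47504831, plus strand).
Cdk4: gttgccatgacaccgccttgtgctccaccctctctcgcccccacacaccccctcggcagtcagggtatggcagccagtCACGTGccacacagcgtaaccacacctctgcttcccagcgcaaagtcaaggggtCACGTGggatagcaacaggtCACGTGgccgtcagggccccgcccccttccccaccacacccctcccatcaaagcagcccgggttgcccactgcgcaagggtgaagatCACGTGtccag
Cdk6: gttctgcggcccCACGTGggtgaacccccg
Ccnd3: gtctactgtttACTTCCTGggcagcgttcg
The Cdk4 window holds 4 E-boxes, which end 166, 112, 92 and 5 bases before the start. Of 32851 windows of the same length 6.02% hold an E-box and 0.0213%, or 7 windows, hold 4 or more. The Cdk6 window holds 1 E-box, 214 bases before a start that lies 2889 bases inside the gene's outer edge. One of the 2 Ccnd3 windows, at the outermost start, holds an ETS match in reverse orientation, 230 bases before the start, as 5.49% of windows do. E2F, STAT and GATA letters were in none of the 9 windows, against 1.86%, 7.02% and 16.6% of all windows. The E2f1 window ends at a start 466 bases inside the gene, so it lies within the gene. Sequence before the outer edge of E2f1 was not searched. The second Ccnd3 window, the second Cdkn2c window and the Cdkn2d window end at starts 88416, 1384 and 212 bases inside their genes. A match is a run of letters, and no binding was measured here.

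Of the 3 inhibitors, 2 were low in lineage-negative marrow and near the whole marrow range in the leukemias. Cdkn2d, which encodes the INK4 protein p19, had log2 intensities of 7.38, 8.26 and 7.40 in whole marrow, 5.93, 5.85 and 5.97 in the pools and 6.88, 7.15 and 7.82 in the leukemias. The pools lay below every other array by a wide margin, and leukemias and whole marrow overlapped. Lineage-negative marrow was 3.40-fold lower than whole marrow (-1.77 ± 0.28, limma adjusted p = 0.00139), the largest difference among the 10 genes, and it kept its call under every alternative. The leukemias were 2.57-fold higher than lineage-negative marrow (1.36 ± 0.28, adjusted p = 0.0217), which was lost without pool 1 (1.37), 2 (1.33) or 3 (1.39) or leukemia 3 (1.10). The neutrophil sums given above were also lowest in the pools. Leukemia 1 had the highest sum of its group and the lowest Cdkn2d, and pool 2 had the lowest sum and the lowest Cdkn2d of the pools. The part of neutrophil content in Cdkn2d was not tested. Leukemia minus whole marrow was -0.40 ± 0.28 (95% interval -1.04 to 0.237, adjusted p = 0.371), or -0.113 without whole marrow array 2, -0.200 without leukemia 1 and -0.670 without leukemia 3.

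Cdkn1b, which encodes p27, had log2 intensities of 9.34, 8.68 and 9.06 in whole marrow, 8.21, 7.83 and 8.06 in the pools and 8.76, 8.77 and 8.70 in the leukemias. The pools again lay below all other arrays, and the leukemias fell within the whole marrow range with a spread of 0.0394 (SD). Lineage-negative marrow was 1.98-fold lower than whole marrow (-0.99 ± 0.16, limma adjusted p = 0.00163, held under every alternative), and the leukemias were 1.64-fold higher than lineage-negative marrow (0.71 ± 0.16, adjusted p = 0.0318). The second call was lost whenever 1 pool or 1 leukemia was left out, at 0.608 to 0.799. Leukemia minus whole marrow was -0.28 ± 0.16 (95% interval -0.648 to 0.0900, adjusted p = 0.272), or -0.453 (adjusted p = 0.0457) without whole marrow array 2, -0.123 without whole marrow array 1 and -0.471 after cyclic loess (adjusted p = 0.0523). A second probe set of Cdkn1b gave the same order of groups, with means of 8.28 ± 0.72 in whole marrow, 6.81 ± 0.21 in the pools and 7.96 ± 0.19 in the leukemias (log2, SD).

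Cdkn2c, which encodes the INK4 protein p18, was the member whose 3 leukemia arrays all stood above the 6 wild type arrays. Its log2 intensity was 8.46, 8.25 and 8.67 in the leukemias, 8.13, 7.96 and 8.14 in whole marrow and 7.81, 8.04 and 7.86 in the pools. The gap between the lowest leukemia and the highest wild type array was small beside the spread among the leukemias. The leukemias were 1.47-fold above lineage-negative marrow (0.56 ± 0.12, limma adjusted p = 0.0245), a call lost with the 2 groups alone (0.559) and without pool 1 (0.513) or 3 (0.537) or leukemia 1 (0.561) or 3 (0.453). They were 1.31-fold above whole marrow (0.39 ± 0.12, adjusted p = 0.0443). That rise was lost under 11 of 16 alternatives, namely 75th percentile centring (0.303), cyclic loess (0.196), an intensity trend in the prior, the 2 groups alone, and without whole marrow array 1, 2 or 3, pool 1 or 3, leukemia 1, or leukemia 3 (0.280). Lineage-negative minus whole marrow was -0.17 ± 0.12 (95% interval -0.442 to 0.0963, adjusted p = 0.309), and -0.455 (adjusted p = 0.0123) after cyclic loess.

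The target of the kinases and its partner behaved differently from each other. Rb1, the retinoblastoma gene, passed in no comparison, with log2 intensities of 9.22 to 9.84 in whole marrow, 9.45 to 9.61 in the pools and 9.80 to 9.84 in the leukemias. The leukemias lay above all pools but within the upper whole marrow range. Leukemia minus lineage-negative marrow was 0.30 ± 0.14 (95% interval -0.0200 to 0.620, limma adjusted p = 0.254) and leukemia minus whole marrow 0.24 (-0.0768 to 0.564, adjusted p = 0.270). The latter was 0.0705 without whole marrow array 2, 0.378 without whole marrow array 3, 0.160 after 75th percentile centring and 0.0682 after cyclic loess. Lineage-negative minus whole marrow was -0.06 (-0.377 to 0.263, adjusted p = 0.794).

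E2f1, the E2F factor released by the retinoblastoma protein and itself a gene that E2F switches on, had log2 intensities of 6.52, 6.56 and 6.71 in whole marrow, 7.23, 7.37 and 7.05 in the pools and 7.12, 7.44 and 7.13 in the leukemias. All pools and all leukemias lay above all whole marrow arrays and overlapped with each other. E2f1 was 1.54-fold higher in lineage-negative marrow (0.62 ± 0.12, limma adjusted p = 0.00329) and 1.55-fold higher in the leukemias (0.63 ± 0.12, adjusted p = 0.00560) than in whole marrow. Both calls held under every alternative, the first with 0.352 (adjusted p = 0.0493) after cyclic loess. Leukemia minus lineage-negative marrow was 0.01 ± 0.12, with a 95% interval from -0.253 to 0.278 (adjusted p = 0.973).

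**Figure D3:**
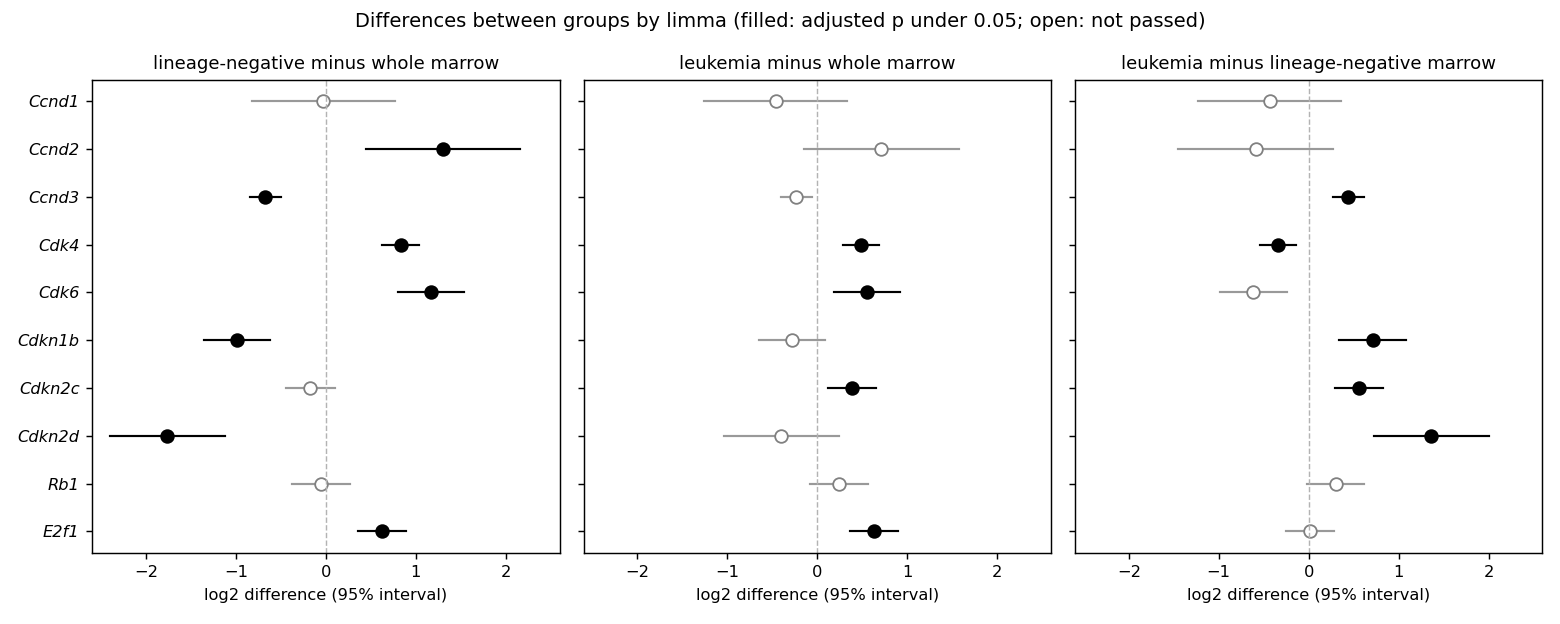
Log2 difference of each of the 10 genes (points) with its 95% interval (lines) in the 3 comparisons, filled where the limma adjusted p was under 0.05. Cdkn2d has the largest difference, -1.77 in lineage-negative against whole marrow, and Ccnd1 and Rb1 pass in none of the 3.

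Set against all genes, the counts read as follows. In lineage-negative against whole marrow 4 of the 10 were higher and 3 lower, where 21.7% of all genes were called higher and 13.0% lower. The arrays of the 2 groups did not overlap in 7 of the 10, against 50.0% of all genes. Between leukemia and whole marrow 4 were higher and 0 lower, against 14.6% and 9.93% of all genes, and 5 of 10 did not overlap, against 37.1%. At an unadjusted p under 0.05, 1 of the 10, Ccnd3, was lower. In leukemia against lineage-negative marrow 4 were higher and 1 lower, against 2.95% and 5.74% of all genes, with 7 of 10 not overlapping, against 27.9%. The median log2 difference of the 10 was -0.04, 0.31 and 0.16 in these comparisons, beside -0.04, -0.02 and 0.01 over all genes. All genes include many dim ones, while the 10 were above the background level. Over the 11001 genes with a mean above that level in at least 1 group, the medians were 0.200, 0.0809 and -0.0825. The comparisons share arrays, so their counts are not independent. Scaling moved the split over all genes: the called genes that were higher made up 62.6% in lineage-negative against whole marrow, 50.3% after 75th percentile centring and 51.2% after cyclic loess. For leukemia against whole marrow these shares were 59.4%, 47.7% and 47.2%, and in leukemia against lineage-negative marrow 34.0%, 44.0% and 44.9%. Centring on the 75th percentile also moved the median of all genes by -0.124 in lineage-negative against whole marrow.

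Other genes of the pathway were followed in 5 lists, and their counts below are to be read beside the shares over all genes. In lineage-negative against whole marrow 21.7% of all genes were called higher and 13.0% lower. In leukemia against whole marrow these shares were 14.6% and 9.93%, and in leukemia against lineage-negative marrow 2.95% and 5.74%. Where 1 gene of a list was lower than whole marrow, that was under these shares. In the list counts against whole marrow given as 0 lower, limma also gave 0 at an unadjusted p under 0.05, except where another count is stated. The list of other G1 cyclins, kinases and inhibitors, 18 genes measured, rose in 8 and fell in 0 in lineage-negative against whole marrow (median 0.32). The largest rises were those of Ccne1, the cyclin E1 gene, from an intensity of 225.9 to 602.7 (1.42 ± 0.18, limma adjusted p = 0.000466), and of Ccnh, a subunit of the CDK-activating kinase (0.79 ± 0.09, adjusted p = 0.000260). In leukemia against whole marrow 5 rose and 0 fell (1 at an unadjusted p under 0.05, median 0.10), led by Cdc37, the chaperone partner that loads CDK4 and CDK6 (0.95 ± 0.14, adjusted p = 0.00201). Ccne1 followed (0.58 ± 0.18, adjusted p = 0.0464), lost after 75th percentile centring (0.496), cyclic loess (0.387) and with 16 added before the log (0.547), and without whole marrow array 1 or 2, pool 1 or 3 or leukemia 2 or 3. That list had 2 rises after 75th percentile centring, 1 after cyclic loess and 3 without whole marrow array 2, pool 1 or leukemia 2. Its falls ran from 0 to 1 over all alternatives. Against lineage-negative marrow 0 rose in the leukemias (2 at an unadjusted p under 0.05) and 4 fell (median -0.15), with Ccne1 at -0.84 ± 0.18 (adjusted p = 0.0253) and Cables1, which couples kinases to other proteins, at -0.81 ± 0.08 (adjusted p = 0.00113). The Ccne1 fall was lost without pool 2 or 3 or leukemia 1 or 3, and the count was 2 without pool 2 or 3 or leukemia 1. Cables1 lay below the background level in the leukemias, at 20.4 against 35.8. The inhibitor genes Cdkn2a, Cdkn2b and Cdkn1c lay below the background level on all 9 arrays.

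The pocket protein, E2F, DP and MuvB list rose in 7 of 17 genes and fell in 1 in lineage-negative against whole marrow (median 0.34). E2f4 (1.31 ± 0.24, limma adjusted p = 0.00268) and E2f6 (1.22 ± 0.12, adjusted p = 0.000176), E2F factors known mainly as repressors, rose most, and E2f2, an activating E2F of erythroid and lymphoid cells, fell (-1.19 ± 0.24, adjusted p = 0.00506). Without pool 2 the list's count of rises was 4. In leukemia against whole marrow 7 rose and 0 fell (median 0.27), with E2f6 at 0.92 ± 0.12 (adjusted p = 0.00163) and E2f4 at 0.91 ± 0.24 (adjusted p = 0.0232). With cyclic loess scaling, or with whole marrow array 1 left out, the count was 2. It was 3 without whole marrow array 2, and 4 without leukemia 2 or with the 2 groups alone. The E2f4 call was lost after cyclic loess (0.723) and without whole marrow array 1 or 2 or leukemia 2 or 3.

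E2f2 and E2f7 set the leukemias apart from lineage-negative marrow in that list, where 2 genes rose and 0 fell (5 lower at an unadjusted p under 0.05, median -0.14). The log2 intensity of E2f2 was 7.92, 8.69 and 8.53 in the leukemias, 6.70, 7.23 and 6.83 in the pools and 7.76, 8.12 and 8.45 in whole marrow. The leukemias lay above all pools and overlapped with whole marrow, and the difference from the pools was 2.75-fold (1.46 ± 0.24, limma adjusted p = 0.00981). E2f7, an atypical E2F that represses targets late in S phase, rose by 0.65 ± 0.13 (adjusted p = 0.0213), a call lost with the 2 groups alone (0.654) and without pool 1 (0.671) or 3 (0.557), where the list had 1 rise.

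The next list holds genes that E2F switches on at the G1 to S transition. It shares Ccne1, Ccne2 and Cdc25a with the other G1 list and Rbl1 and Mybl2 with the pocket protein list. Ccna2 is also in the list of later cell cycle genes, so the list counts are not independent. Of 28 measured targets 23 rose and 0 fell in lineage-negative against whole marrow (median 0.81), with Orc1, of the origin recognition complex, at 1.49 ± 0.27 (limma adjusted p = 0.00280) and Ccne1, which 2 lists hold, next. The leukemias had 17 targets higher than whole marrow and 0 lower (median 0.53), led by the thymidine kinase gene Tk1 (1.01 ± 0.14) and the thymidylate synthase gene Tyms (0.78 ± 0.09, adjusted p = 0.00116). The count of 17 became 10 after cyclic loess and 11 without whole marrow array 1 or 2. Against lineage-negative marrow 0 rose and 3 fell (0 higher and 10 lower at an unadjusted p under 0.05, median -0.24), among them Chek1, a checkpoint kinase gene (-0.58 ± 0.14, adjusted p = 0.0367, lost without whole marrow array 1 or any 1 pool or leukemia). Leaving out single arrays gave 0 to 4 falls, with 0 without pool 2 or 3 or leukemia 3, and adding 16 before the log gave 5.

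The list of later cell cycle genes came next. Of 14 measured genes from S phase to mitosis 6 rose and 0 fell in lineage-negative against whole marrow (median 0.28), with 2 rising after 75th percentile centring and 1 after cyclic loess. Over all alternatives 0 to 1 fell. Cdc25c, a phosphatase gene for entry into mitosis, rose by 0.61 ± 0.07 (limma adjusted p = 0.000378) and Cdc20 by 0.59 ± 0.13, which was lost after cyclic loess (0.308). In leukemia against whole marrow 7 rose and 0 fell (median 0.36), or 4 after either scaling or without whole marrow array 1. Cdc25b, another mitotic phosphatase gene, stood at 8.23, 9.57 and 8.85 in the leukemias, 7.34, 7.37 and 7.87 in whole marrow and 7.08, 7.24 and 7.27 in the pools on the log2 scale. All leukemias lay above all wild type arrays, by 1.35 ± 0.30 over whole marrow (adjusted p = 0.0116) and 1.69 ± 0.30 over the pools (adjusted p = 0.0121). It was the only gene of this list past the threshold between leukemia and lineage-negative marrow (median 0.10). At an unadjusted limma p under 0.05, 4 of the list were higher and 1 lower, and over the alternatives 1 to 2 passed as higher.

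One of 16 upstream regulators of D cyclins, a mixed list of inducers and repressors, was Myc, a growth factor response gene. Its log2 intensity was 9.15, 9.14 and 9.15 in whole marrow, 10.82, 10.86 and 10.88 in the pools and 10.41, 10.83 and 10.44 in the leukemias, and the last groups overlapped. Lineage-negative marrow had 7 genes of the list higher and 1 lower than whole marrow (median 0.24). Gfi1b, an erythroid and megakaryocytic repressor, led (1.94 ± 0.25, limma adjusted p = 0.000522), then Myc (1.71 ± 0.11, adjusted p = 5.17e-05), and Stat3, a cytokine signal transducer, was lower (-1.29 ± 0.31, adjusted p = 0.0108). After either scaling 4 were higher, and 4 (75th percentile centring) or 3 (cyclic loess) lower. In the leukemias 5 were higher and 1 lower than in whole marrow (median 0.05), with Myc (1.41 ± 0.11) and Gfi1b (1.36 ± 0.25, adjusted p = 0.00566) up. Gfi1, which restrains proliferation of stem cells, was down (-1.21 ± 0.33, adjusted p = 0.0267, lost without whole marrow array 1 or 2 or leukemia 2 or 3). Under each scaling 3 were higher, and 4 (75th percentile centring) or 3 (cyclic loess) lower. Leaving out any 1 array other than whole marrow 3 or leukemia 1 also gave 3 higher, and leaving out whole marrow 1 or leukemia 2 gave 0 lower. Against lineage-negative marrow 0 were higher, also at an unadjusted p under 0.05, and 2 lower (median -0.23), Mycn (-1.17 ± 0.12, adjusted p = 0.00140), below the background level in the leukemias, and Mtor (-0.32 ± 0.08, adjusted p = 0.0481, lost under 12 of 16 alternatives, both scalings at -0.280 and -0.209 among them). Without whole marrow array 1, any 1 pool or leukemia 3, the count of falls was 1.

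**Figure D4:**
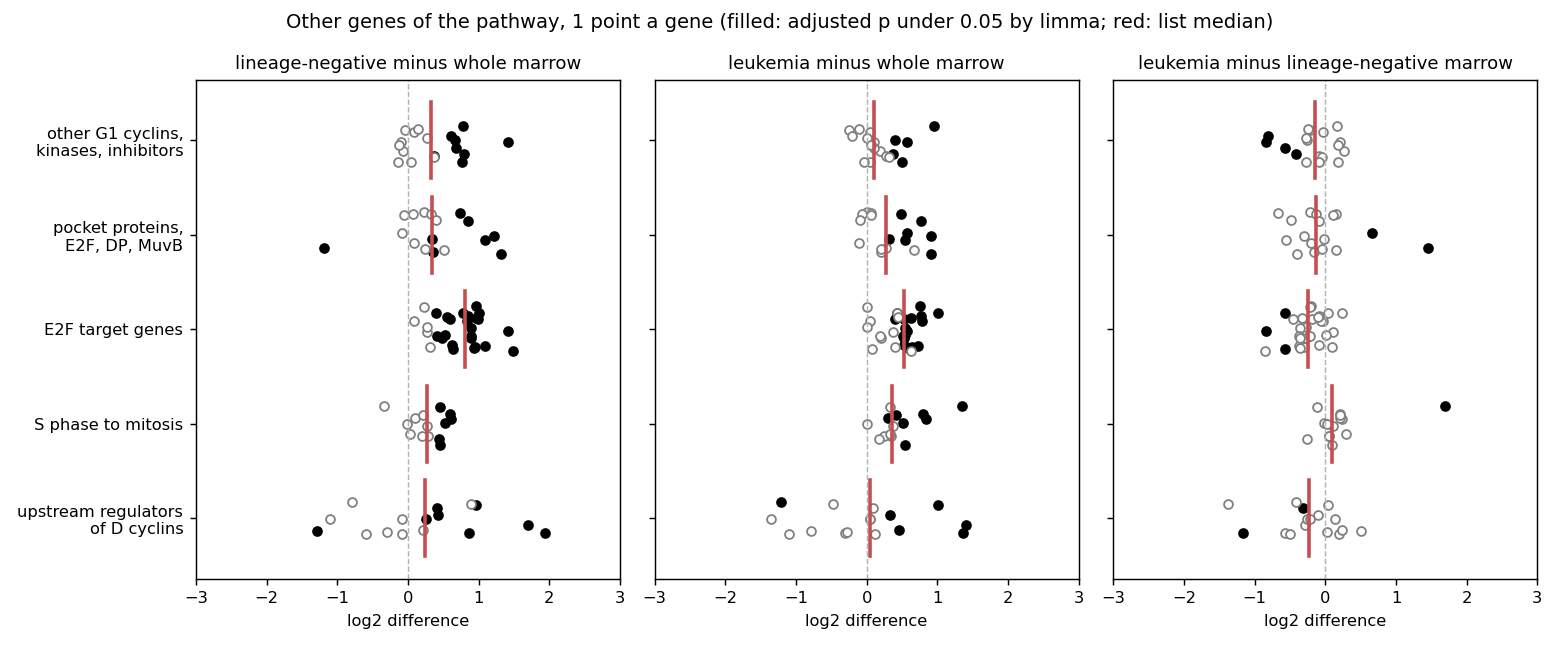
Log2 differences of the other pathway genes, 1 point a gene, in 5 lists and 3 comparisons, filled where the limma adjusted p was under 0.05, with the list median in red. The E2F targets have medians of 0.81 and 0.53 over whole marrow in lineage-negative marrow and leukemia, and -0.24 in leukemia against lineage-negative marrow.

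Genes with the most similar pattern were found over all 9 arrays by the mean absolute difference of log2 values, each gene centred on its own mean. For Cdk4 they were Dtwd2 (0.0324), Nfx1 (0.0349) and Kat14 (0.0432), and for Cdk6 Hadh (0.0672), Agk (0.0810) and Dnmt3b (0.104), the last a DNA methyltransferase of early cells. E2f1 was followed most closely by Nudt21 (0.0442), Hcfc1 (0.0459) and Wrap53 (0.0661), and Ccnd3 by Lbr (0.0565), Pabpc1l (0.0687) and Dcaf12 (0.0730). Nearest to Cdkn1b were Erp27 (0.0907), Mindy2 (0.109) and Ncoa3 (0.110), and nearest to Cdkn2c were Sh2d1b2 (0.0872), Ankrd37 (0.0934) and Phf11d (0.0939). Ccnd2 lay further from its nearest genes, Utp18 (0.218), Ptpn3 (0.223) and Zfp317 (0.224). So did Cdkn2d, with Smpdl3a (0.221), C1rl (0.228) and Colec12 (0.232). The differences were not scaled by a gene's spread, so genes that vary more tend to lie further from any other gene. Ccnd1 and Rb1, which passed in no comparison, were not searched. Of the 24 genes named, 8 lay below the background level on at least 1 array, so that their patterns rest at least in part on dim signal. Sh2d1b2 was below it on 9 arrays, Pabpc1l on 8, and Ankrd37 and Phf11d on 6 each. Dnmt3b and Colec12 were below it on 4 each, C1rl on 3 and Erp27 on 1.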

How the data were processed

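The deposited table gives linear intensity for 28853 probe sets per array, made by the authors with RMA (joint background correction, normalization and probe summary) in the Partek software, as per the submitters' processing notes. Sources used here name no genome build. The design had assumed values ready for testing on a log scale; being linear, they were log2-transformed with no further scaling. Symbols come from the platform annotation, updated by Entrez identifier in the RefSeq table of GRCm38.p6: 21789 probe sets had 1 symbol, 1621 several and 5443 none named here. The brightest probe set stood for each of 19938 genes.

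One limma 3.58.1 model in R 4.3.3 held all 9 arrays (lmFit, contrasts.fit, eBayes without trend, 6 residual and 2.62 prior degrees of freedom). The fit was tested on simulated data. With 3 arrays a group, precision is limited by their number. The model takes a common spread per gene for arrays of single mice and of pools alike. Alternatives were 2 scalings, a filter on dim genes, averaged probe sets, an intensity trend, 2 groups alone, 16 added before the log, each array left out, and the replicate number as a block. Leukemias were numbered in accession order. Members and lists were chosen with earlier results of these data known. Adjusted p-values below 0.05 were called, and limits of 95% intervals come from the same model. Named from each list were the 2 largest rises and 2 largest falls past the threshold. Figures used matplotlib 3.10.9 in Python 3.11.15.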

Additional observations from a re-analysis of the deposited data

How the results depend on the processing

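Of 490 values of the 10 genes recomputed under an alternative, 423 kept direction and side of the threshold, 53 lost a call, 9 gained one and 5 changed sign, none of the 5 past the threshold. Sign changes came from arrays left out: E2f1 in leukemia against lineage-negative marrow ran from -0.0910 (without leukemia 2) to 0.0868 and was -0.0708 without pool 3. Ccnd1 in lineage-negative against whole marrow ran from -0.360 to 0.378 (without whole marrow array 3) and was 0.108 without pool 2, and Rb1 ran from -0.230 to 0.0774 (without whole marrow array 3). In leukemia against whole marrow, 2 of the 10 were higher after 75th percentile centring, after cyclic loess and with the 2 groups alone, and 1 was lower after cyclic loess and with 16 added before the log. Of all 19938 genes, 2215 were higher and 2431 lower after 75th percentile centring, and 2174 and 2428 after cyclic loess. Leaving out single arrays gave 2 to 4 of the 10 higher and 0 to 1 lower, and 2350 to 2835 of all genes higher and 1248 to 1915 lower. In leukemia against lineage-negative marrow, 0 of the 10 were lower after 75th percentile centring and with the 2 groups alone. Of all genes, 715 were higher and 909 lower after 75th percentile centring. Leaving out single arrays gave 1 to 4 of the 10 higher and 0 to 2 lower, and 268 to 827 of all genes higher and 490 to 1174 lower. The cause of these changes was not tested, other than that a fit with an array left out has fewer samples. In lineage-negative against whole marrow no count of the 10 moved by over 1.5 times.

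The replicate numbers of the wild type groups were not used to pair them, since the mice differed. Deviations of same-numbered arrays correlated at 0.312, -0.009 and -0.009. Those of arrays with unlike numbers correlated at -0.203 to 0.147, so the pair numbered 1 was the highest. With the replicate block, 4346 genes were higher and 2547 lower, and 4 and 3 of the 10, with no call among the 10 changed. The number of arrays, 3 a group, limits what each comparison can resolve.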
